A study of Mus musculus with 10 samples.

Results

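Nuclear transport genes were followed in 4T1 cells, a mammary carcinoma cell line from a BALB/c mouse, grown inside collagen gels of different density. The genes are the nucleoporins and the transport receptors whose symbol begins with Nup, Kpna, Kpnb, Xpo, Ipo or Tnpo followed by a digit (or is Xpot), together with Ran, taken from array rows that name a single gene. They were chosen by name and not by their values, but with earlier results of these data known. The rule found 40 genes among 30142 named by a single symbol on the array, 18 nucleoporins and 22 transport receptors including Ran. Each gene was read on its brightest row. Of these, 38 lay above the signal floor (a mean log2 signal over 5.24) and were tested, while Kpna7 and Nup62cl lay below it. The floor is lower than the medians of the negative control rows given below, so a gene that passed it need not be detected.

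The low density group (LD, 5 arrays) was grown at 2 mg of collagen per mL and the high density group (HD, 5 arrays) at 3.5 mg per mL, and every other condition given in the labels was the same for both. Each culture began with 50000 cells and lasted 5 days (RPMI with 10% serum, 37 °C, 5% CO2), and the medium was renewed on day 3. Total RNA was hybridised to Affymetrix MTA 1.0 arrays, 1 sample per array. No transgene or added agent is named in the labels, and the comparison asks how collagen density goes along with gene expression in these cells.

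The nuclear pore is the channel through which proteins and RNA cross the nuclear envelope. Its scaffold is built of outer rings (the Y complexes) and inner rings, its channel is lined by nucleoporins with phenylalanine-glycine repeats, and filaments and a basket extend into the cytoplasm and the nucleus. Importins bind cargo in the cytoplasm and release it in the nucleus when they meet Ran in its GTP-bound form, whereas exportins take up cargo together with that form of Ran. Importin alpha is the adaptor between classical nuclear localisation signals and importin beta.

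Of the 38 members tested, 32 (84.2%) were higher in HD and none was lower (limma, p-values adjusted by Benjamini-Hochberg across the 17800 genes tested, threshold 0.05), and at an unadjusted p under 0.05 the count of lower members was also 0. Among all genes tested, 31.4% were called higher and 19.5% lower. Those genes reach down to the floor, whereas every tested member but Nup210l had group means from 6.99 upward. Brightness was not matched between the members and all genes. The member changes were small, between -0.04 and 0.56 on the log2 scale with a median of 0.236, against a median of 0.055 over all genes tested and a median SD between replicates of 0.073. In 30 members (78.9%) all 5 HD values lay above all 5 LD values, which held for 21.6% of all genes tested. The reverse, all 5 HD values below all 5 LD values, held for 15.1% of all genes and for none of the tested members. With a change of at least 1.2-fold also required, 16 members (42.1%) were higher, against 10.9% of all genes higher and 8.09% lower, and no member was lower. In bulk samples, fewer cells of a type and less RNA per cell cannot be told apart.

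Control rows of the array moved with the groups. The 5222 negative control rows had a median of 5.67 ± 0.052 (SD over 5 LD arrays) against 5.42 ± 0.12 over the HD arrays. Medians of the 1324 positive control rows were 9.21 and 9.28, and those of the 23 background rows 3.47 and 3.63. Each of these differences had an exact permutation p of 0.0079 (two-sided), and no smaller p is possible with 5 arrays a group. The 92 ERCC control rows, which were not used for scaling, had medians of 4.51 in LD and 4.70 in HD (exact permutation p = 0.032). When every array was scaled linearly to equal medians of the negative and positive control rows, 27 members (71.1%) were higher, 1 was lower and 10 passed no test, where 49.4% of all genes were called higher and 19.1% lower. The median member change was then 0.176 and that of all genes 0.133, so the distance between them narrowed. Because the scaling is linear in each array, the shift it gave a gene depended on that gene's signal level. Bright members such as Kpna2 moved down and dim ones such as Nup210l moved up. Whether the arrays should be scaled in this way was not tested. Each member whose call or direction differs under this scaling is given with its value below. Markers of the epithelial tumour line were all detected (8 of 8 tested, mean signal 10.33 to 10.38 in LD and 10.09 to 10.25 in HD). Among them, 4 fell in HD and none rose, Krt19 by 0.76 and Epcam by 0.60 on the log2 scale (adjusted p 7.9e-07 and 2.2e-06). Mean signals of the fibroblast, leukocyte and endothelial lists ranged from 4.54 to 5.36, and Ptprc, the pan-leukocyte marker, was at 3.09 and 3.14, below the floor. Single genes of these lists were brighter, such as Cd68 at 8.57 in LD and 7.83 in HD, and Col1a1 at 6.71 and 6.80. Of the 4 tested fibroblast genes 2 rose, of the 3 tested leukocyte genes Cd3e rose by 0.16 and Cd68 fell by 0.74 on the log2 scale, and Tie1, the 1 endothelial gene tested, rose by 0.17. The genes that rose, Col3a1, Thy1, Cd3e and Tie1, had group means between 5.29 and 5.80, near the medians of the negative control rows. The part of these marker changes in the member results was not tested.

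Ran, the GTPase that gives nuclear transport its direction, was higher in HD. Its log2 signal in LD replicates 1 to 5 was 9.68, 9.72, 9.75, 9.75 and 9.85, and in HD replicates 1 to 5 it was 10.08, 10.09, 10.16, 10.06 and 10.10. The groups did not overlap, and the highest LD value lay 0.206 below the lowest HD value. The change was 0.35 ± 0.039 (SE) on the log2 scale, 1.27-fold (limma adjusted p = 6.7e-06), and it was 0.23 after scaling on control rows (adjusted p = 0.0013). Genes of the Ran cycle and other receptors outside the members were taken from a separate list. Rcc1, the nucleotide exchange factor that loads Ran with GTP in the nucleus, was at 7.13, 7.20, 7.25, 7.28 and 7.43 in LD and at 7.86, 7.88, 7.84, 7.76 and 7.73 in HD. Its groups were separate, and it rose 1.47-fold (0.56 ± 0.053 SE, limma adjusted p = 1.8e-06). Cse1l, the export receptor that returns importin alpha to the cytoplasm, rose 1.39-fold (0.47 ± 0.047 SE, adjusted p = 2.8e-06). Rangap1, which triggers GTP hydrolysis by Ran, rose by 0.45 and Ranbp1, its cofactor, by 0.39 (limma adjusted p = 2.3e-06 and 3.1e-06, both named after their values were seen). In this list, there were 7 higher and 0 lower calls among 10 tested genes (median change 0.184; at an unadjusted p under 0.05 Hikeshi alone was lower). Hikeshi, an importer of the heat shock protein Hsp70, had all 5 HD values (7.301 to 7.323) below all 5 LD values (7.327 to 7.502). It was picked out after its values were seen and had a difference of -0.09 (limma adjusted p = 0.054). It was called lower without LD replicate 3 (-0.11, adjusted p = 0.033), after median centring (-0.10, adjusted p = 0.030) and with a stricter filter on dim rows (adjusted p = 0.037), and was at 0.003 after scaling on control rows.

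All 5 tested importin alpha genes were higher in HD, with a median change of 0.30. Kpna2, the importin alpha that proliferating cells express strongly, read 11.26, 11.35, 11.37, 11.28 and 11.49 in LD and 11.88, 11.84, 11.78, 11.74 and 11.73 in HD. No HD array came near the LD range, and the gene rose 1.36-fold (0.44 ± 0.048 SE, limma adjusted p = 6.2e-06). The Kpna2 value carries a doubt about its row, because the annotation gives this symbol to 3 rows. By its identifier the brightest lies on chromosome 17, a dimmer one on chromosome 3 and the dimmest on chromosome 11, where RefSeq places the gene. The rows on chromosomes 3 and 11 changed by 0.44 and 0.36 on the log2 scale, each without overlap between the groups (means 11.28 and 11.72 for the former, 10.75 and 11.11 for the latter). Which of the 3 rows reads the gene was not tested. After scaling on control rows the brightest row changed by 0.18 (adjusted p = 0.021).

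Kpna1 (importin alpha 5 in human naming) was at 7.84, 7.91, 7.84, 7.83 and 7.96 in LD and at 8.36, 8.26, 8.25, 8.26 and 8.31 in HD. All HD values were higher, by 0.41 ± 0.038 (SE) on the log2 scale or 1.33-fold (limma adjusted p = 1.5e-06). Kpna6, Kpna4 and Kpna3 rose by 0.30, 0.25 and 0.16, with overlapping groups in Kpna3 alone among these, whose change shrank to 0.007 after scaling on control rows (adjusted p = 0.90). Kpna7, an importin alpha known from oocytes and early embryos, stayed below the floor, with LD arrays at 4.71 ± 0.036 (SD, n = 5) and HD arrays at 4.75 ± 0.096.

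**Figure D1:**
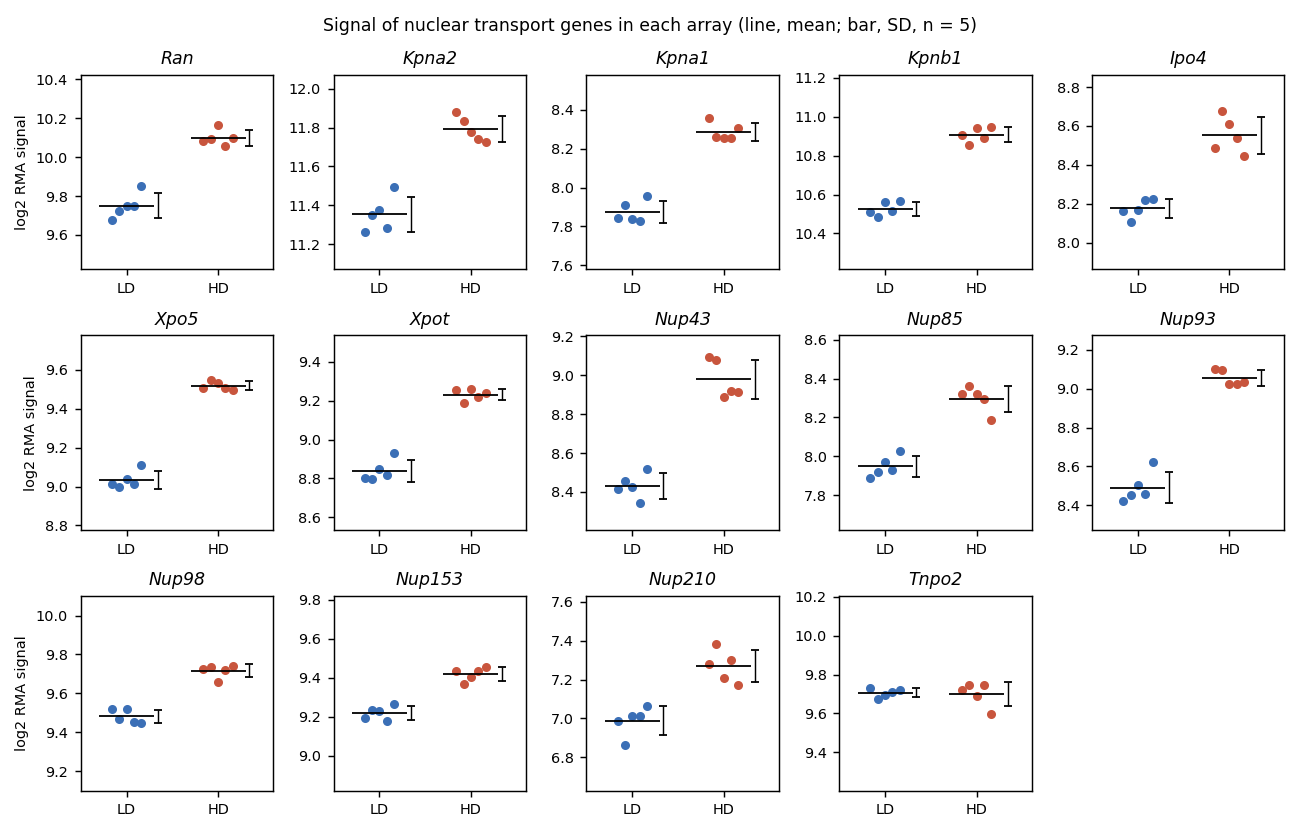
Log2 RMA signal (y axis, each panel spans 1 log2 unit) of Ran, importins, exportins and nucleoporins in the 5 LD (blue) and 5 HD (red) arrays, left to right by replicate number, with the mean as a line and the SD as a bar. All HD points lie above all LD points in every panel except Tnpo2, where the groups overlap.

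Importin beta and its relatives were less uniform, with 5 of 9 higher and 4 without a call (median 0.105). Kpnb1 is importin beta itself, the carrier that takes importin alpha and its cargo through the pore. Its signal was 10.51, 10.48, 10.56, 10.52 and 10.57 in LD and 10.91, 10.85, 10.94, 10.89 and 10.95 in HD, with a wide gap between the groups. It rose 1.30-fold (0.38 ± 0.034 SE, limma adjusted p = 1.2e-06; 0.19 and adjusted p = 0.0063 after scaling on control rows). Ipo4, an importer of histones and ribosomal proteins, read 8.16, 8.11, 8.17, 8.22 and 8.23 in LD and 8.49, 8.68, 8.61, 8.54 and 8.45 in HD. The HD arrays were all higher though more scattered, and the change was 0.37 ± 0.046 (SE), also 1.30-fold (limma adjusted p = 1.8e-05).

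Smaller rises were seen in Ipo9, which carries histones H2A and H2B, and in Ipo8 and Ipo5, at 0.15, 0.15 and 0.10 on the log2 scale. Ipo5 passed narrowly in the deposited values (adjusted p = 0.020), but it was at 0.05 after quantile normalization (adjusted p = 0.19) and turned to -0.09 after scaling on control rows (adjusted p = 0.10). Ipo13, which carries cargo in both directions, differed by 0.11 (adjusted p = 0.070). It passed the test without HD replicate 5 (0.13, adjusted p = 0.039), after quantile normalization (0.17, adjusted p = 0.0056) and after scaling on control rows (0.175, adjusted p = 0.0070).

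The 3 transportins, which import RNA-binding proteins, had no call. Tnpo2 was closest to 0, at 9.73, 9.67, 9.70, 9.71 and 9.72 in LD and 9.72, 9.75, 9.69, 9.75 and 9.60 in HD. Its groups overlapped throughout, and the difference of -0.007 had a 95% interval of -0.087 to 0.073 (limma adjusted p = 0.89). Tnpo1, the receptor for signals of the proline-tyrosine type, differed by 0.07 with an interval of -0.007 to 0.15. Tnpo3, which imports splicing factors of the SR family, differed by 0.06 with an interval of -0.014 to 0.13. After scaling on control rows all 3 were below 0, Tnpo1 at -0.07, Tnpo3 at -0.06 and Tnpo2 at -0.11, and Tnpo2 was then called lower (adjusted p = 0.035).

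All 6 exportins were higher in HD, each with separate groups, and their median change was 0.30. Xpo5, the carrier of microRNA precursors, led with 9.012, 8.999, 9.039, 9.014 and 9.112 in LD and 9.505, 9.550, 9.535, 9.509 and 9.499 in HD. The spread within each group was narrow beside the gap of 0.387 between the highest LD and the lowest HD array. Xpo5 rose 1.40-fold (0.48 ± 0.034 SE, limma adjusted p = 1.5e-07). Xpot, which exports transfer RNA, was at 8.80, 8.80, 8.85, 8.82 and 8.93 in LD and at 9.25, 9.19, 9.26, 9.22 and 9.24 in HD. Its rise was 1.31-fold (0.39 ± 0.036 SE, limma adjusted p = 1.5e-06), and LD replicate 5 was again the LD array closest to HD.

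Xpo4, a carrier of the translation factor eIF5A, rose by 0.35. Xpo1, the main exporter of proteins with leucine-rich export signals, rose by 0.24 (limma adjusted p = 0.0017), with HD arrays that ranged from 9.63 to 9.89. Xpo7 and Xpo6, the latter an exporter of actin with profilin, rose by 0.13 and 0.12. After scaling on control rows Xpo1 was at 0.145 (adjusted p = 0.052) and Xpo6 at 0.07 (adjusted p = 0.14), and the other exportins were still called.

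The outer ring of the pore was higher in HD in all 6 members measured here, with a median change of 0.31 and no overlap between groups in any of them. Nup43, a subunit of the Y complex, had signals of 8.41, 8.46, 8.43, 8.34 and 8.52 in LD and 9.09, 9.08, 8.89, 8.92 and 8.91 in HD. HD replicates 1 and 2 stood somewhat above the other HD arrays, and the rise was 1.46-fold (0.55 ± 0.050 SE, limma adjusted p = 1.3e-06). Nup85, another Y complex subunit, was at 7.89, 7.92, 7.97, 7.93 and 8.03 in LD and at 8.32, 8.36, 8.32, 8.29 and 8.19 in HD. It rose 1.27-fold (0.35 ± 0.041 SE, limma adjusted p = 1.2e-05), with its lowest HD value 0.159 above its highest LD value. Nup37, Nup160, Nup107 and Nup133, further subunits of the complex, rose by 0.31, 0.30, 0.29 and 0.24, and all 6 were also called after scaling on control rows (0.21 to 0.53).

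In the inner ring, all 4 members measured rose. Nup93, a scaffold protein that anchors the central channel nucleoporins, had the largest change among the 38 tested members. It was at 8.42, 8.45, 8.50, 8.46 and 8.63 in LD and at 9.10, 9.10, 9.03, 9.02 and 9.03 in HD. The groups were 0.397 apart at their nearest arrays, the widest such gap among the tested members, and the rise was 1.48-fold (0.56 ± 0.042 SE, limma adjusted p = 2.5e-07). Its change stood at the 99th percentile of all genes tested. Nup155, Nup205 and Nup188, large scaffold proteins of the same ring, rose by 0.23, 0.22 and 0.16, and Nup155 lost its call after scaling on control rows (0.11, adjusted p = 0.059).

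Among nucleoporins of the channel, Nup98 read 9.52, 9.47, 9.52, 9.45 and 9.45 in LD and 9.73, 9.74, 9.66, 9.72 and 9.74 in HD. Its gene also encodes the Y complex subunit Nup96, and it rose 1.18-fold (0.24 ± 0.034 SE, limma adjusted p = 5.7e-05). All HD arrays were higher, and replicate 3 was the lowest of them. Nup54, a partner of Nup62 in the channel, rose by 0.10 with overlapping groups (limma adjusted p = 0.039). That call was lost when LD replicate 1, 3 or 4 or HD replicate 1, 3 or 5 was left out (adjusted p 0.069 to 0.090), with the replicate number as a block (0.054), after median centring (0.070), without a filter on dim rows (0.067), after quantile normalization (0.06, adjusted p = 0.21), and after scaling on control rows (0.01, adjusted p = 0.84).

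Both basket nucleoporins measured among the members rose. Nup153, which tethers the basket to the pore, was at 9.20, 9.23, 9.23, 9.18 and 9.27 in LD and at 9.43, 9.37, 9.40, 9.43 and 9.46 in HD. The groups did not touch, and the change was 0.20 ± 0.034 (SE) or 1.15-fold (limma adjusted p = 2.5e-04). Nup50, its binding partner, rose by 0.19, and was at 0.09 after scaling on control rows (adjusted p = 0.089).

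Nup210, a membrane-spanning nucleoporin, was at 6.99, 6.86, 7.01, 7.01 and 7.06 in LD and at 7.28, 7.38, 7.21, 7.30 and 7.17 in HD. Every HD array was above every LD array, and the rise was 1.22-fold (0.28 ± 0.048 SE, limma adjusted p = 2.5e-04). Its paralogue Nup210l, which is known from testis, was close to the negative control rows, with LD arrays at 5.87 ± 0.074 (SD, n = 5) and HD arrays at 5.95 ± 0.045. It differed by 0.08 in the deposited values (adjusted p = 0.13), by 0.14 after quantile normalization (adjusted p = 0.0057), by 0.10 with array weights (adjusted p = 0.042) and by 0.295 after scaling on control rows (adjusted p = 2.4e-04). Nup62cl, a relative of Nup62, was at 3.04 and 3.08, below the floor.

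Nup88 of the cytoplasmic filaments was the single one of the 17 tested nucleoporin members with a lower mean in HD. It read 7.56, 7.62, 7.54, 7.49 and 7.56 in LD and 7.61, 7.46, 7.48, 7.50 and 7.52 in HD, with overlapping groups, and was described after its values were seen. The difference of -0.04 had a 95% interval of -0.125 to 0.045 (limma adjusted p = 0.41), and it turned positive after quantile normalization (0.03) and after scaling on control rows (0.04).

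**Figure D2:**
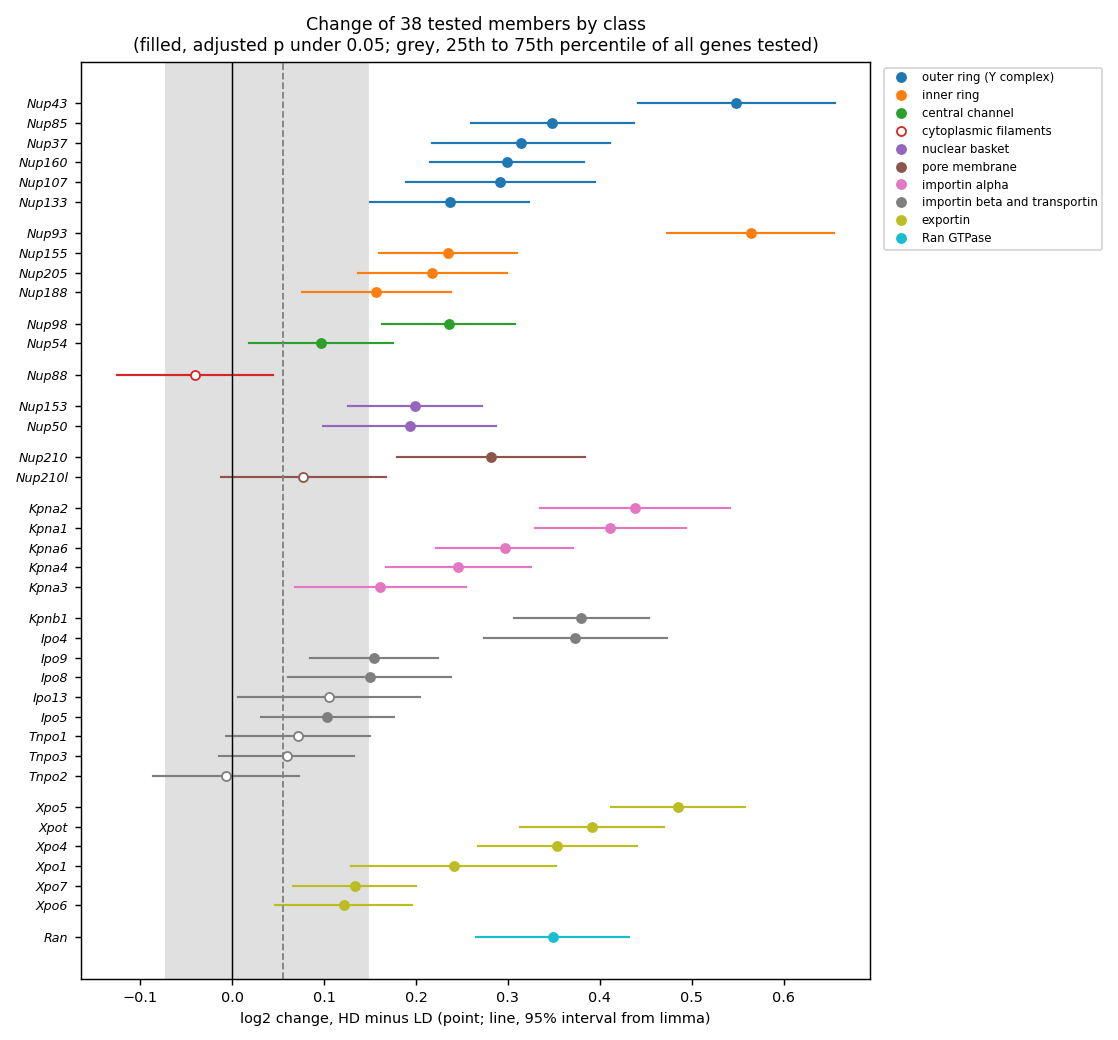
Log2 change from LD to HD (x axis) of the 38 tested members, ordered by their place in the pore or their role in transport, with 95% intervals from limma; filled points have an adjusted p under 0.05. Grey marks the range from the 25th to the 75th percentile of all genes tested (-0.072 to 0.148) and the dashed line their median, 0.055. Above 0 lie 36 of the 38 members and 11212 of the 17800 genes tested.

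Nucleoporins and receptors changed to a like degree in these data, with medians of 0.235 over 17 tested nucleoporins (15 higher) and 0.241 over 21 tested receptors and Ran (17 higher). No test of that difference was made. Of all 38 members, 36 lay above the median of all genes tested when genes were ranked by their change, and 16 lay above the 90th percentile.

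The members' level was also summarised in each array. Their mean deviation from each gene's own mean over the 10 arrays was -0.143, -0.128, -0.124, -0.145 and -0.069 on the log2 scale in LD replicates 1 to 5, and 0.156, 0.130, 0.104, 0.106 and 0.114 in HD replicates 1 to 5. LD replicate 5 was thus the LD array closest to HD, and no LD array reached an HD array. The same quantity over all genes tested ran from -0.019 to -0.013 in LD and from 0.008 to 0.029 in HD. LD replicate 5 held the highest LD value for 26 of the 38 members and the lowest for 1, while in HD the highest value fell in replicate 1 for 15 members and in replicate 2 for 12. The lowest HD value fell in replicate 5 for 12 members, in replicate 2 for 10 and in replicate 1 for 1, so HD replicate 2 was high for some members and low for others. Members share arrays, so these counts describe the arrays and are not independent. Without LD replicate 5 the median member change was 0.246 in place of 0.236, and 32 members were again higher.

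**Figure D3:**
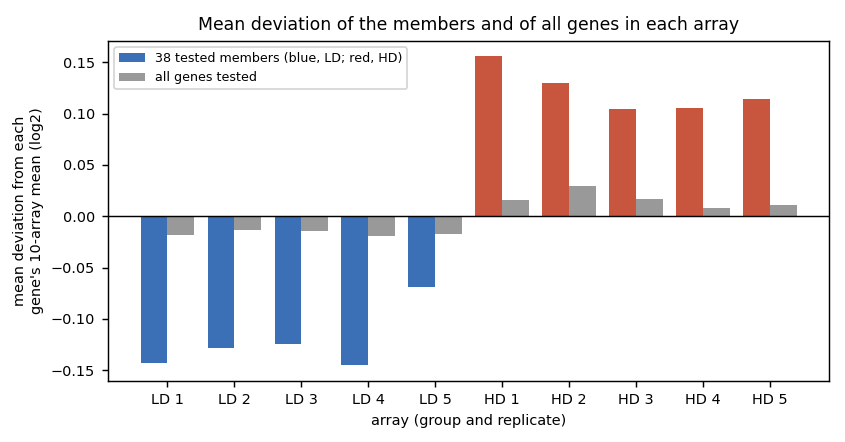
Mean deviation on the log2 scale (y axis) of the 38 tested members from each gene's mean over the 10 arrays, per array (x axis), in LD (blue) and HD (red), beside the same mean over all genes tested (grey). Member bars lie between -0.145 and -0.069 in LD and between 0.104 and 0.156 in HD, with LD replicate 5 nearest to 0 in its group.

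**Figure D4:**
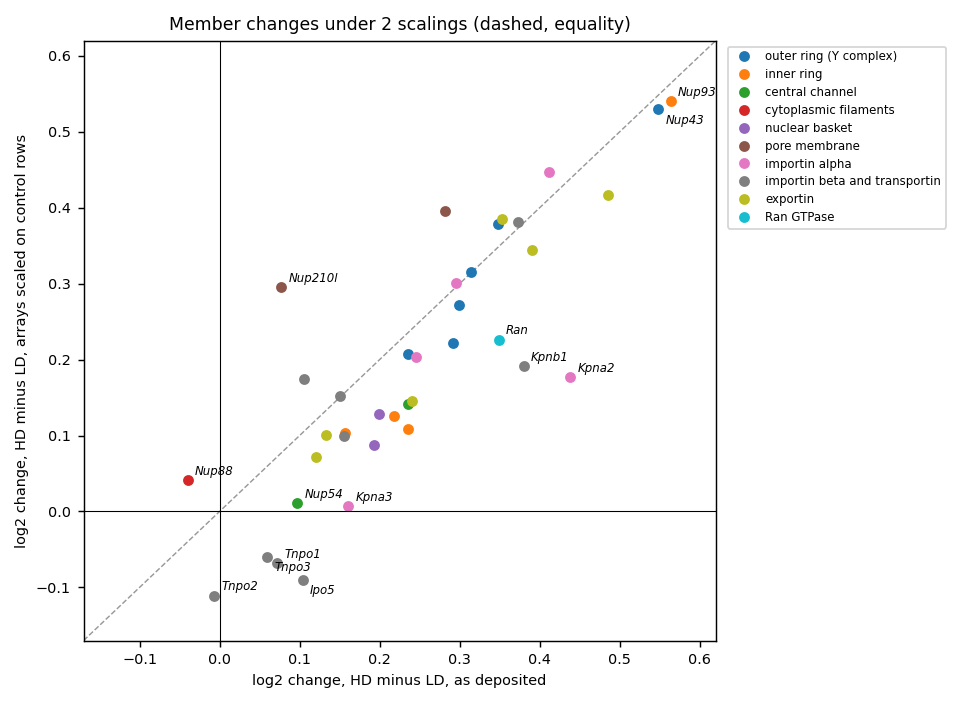
Log2 change of each tested member in the deposited values (x axis) and after each array was scaled on its control rows (y axis), coloured by class, with the line of equality dashed. Kpna2 dropped from 0.44 to 0.18 and Nup210l went from 0.08 to 0.295, and Ipo5, Tnpo1 and Tnpo3 crossed to below 0 while Nup88 crossed to above 0. The size and direction of these shifts depend on each gene's signal level.

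The members' promoters were searched for 4 short motifs in the window from 250 bases before to 50 bases after the gene's start (RefSeq, build GRCm38.p6), on both strands. Of the 40 members, 32 were matched by gene ID. CACGTG, the palindromic E-box bound by MYC with MAX and by the USF factors, occurred in 7 members (21.9%: Ipo4, Nup188, Nup54, Nup93, Ran, Tnpo2 and Xpot), and in 8.09% of 27025 genes with a promoter in the table. CCGGAA, the core bound by ETS factors, occurred in 28.1% of members and 16.7% of genes. CCAAT, the box of NF-Y, occurred in 53.1% and 41.1%, and TTTGGCGC or TTTCCCGC, forms of the E2F site, in 3.12% and 1.8%. The base composition of the promoters was not matched, and a motif is a run of letters and not a measured site. Of the 7 members with an E-box, 6 were called higher, beside 32 of all 38 tested. Those 38 include the 7 and also 8 members that had no promoter to search. The unsearched members were Kpna1, Kpna3, Kpna6, Nup43, Nup85, Nup210l, Xpo4 and Xpo7, and all of them but Nup210l were called higher. Ran, Nup93, Xpot and Ipo4 rose by 0.35 to 0.56 on the log2 scale, Nup188 by 0.16 and Nup54 by 0.10 (the call lost under the settings named above), whereas Tnpo2 did not pass the test. The 250 bases before the start are shown for Ran, Nup93, Xpot and Tnpo2, written on the gene's own strand with CACGTG in capitals, so that the motif's place can be compared between genes that rose and one that was not called. They lie at chr5:129019906-129020155 (plus strand) for Ran, chr8:94214314-94214563 (plus strand) for the first listed promoter of Nup93, chr10:121626333-121626582 (minus strand) for Xpot and chr8:85036643-85036892 (plus strand) for the first listed promoter of Tnpo2. The E-box begins 118 bases before the start in Ran, 175 in Nup93 and 231 in Xpot. Tnpo2 holds 2, which begin 116 and 155 bases before its start, and those of Nup188 and Nup54 begin 24 to 100 bases before theirs. The second listed promoters of Nup93 and Tnpo2 hold no E-box in the 250 bases before the start. Which start these cells use was not tested. Ipo4 holds no E-box that lies wholly within the 250 bases before its start.
Ran: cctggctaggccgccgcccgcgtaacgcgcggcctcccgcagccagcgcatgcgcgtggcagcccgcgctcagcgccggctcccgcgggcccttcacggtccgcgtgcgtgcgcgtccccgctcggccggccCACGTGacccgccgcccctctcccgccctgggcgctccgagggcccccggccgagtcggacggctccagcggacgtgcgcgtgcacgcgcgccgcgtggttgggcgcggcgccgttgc
Nup93: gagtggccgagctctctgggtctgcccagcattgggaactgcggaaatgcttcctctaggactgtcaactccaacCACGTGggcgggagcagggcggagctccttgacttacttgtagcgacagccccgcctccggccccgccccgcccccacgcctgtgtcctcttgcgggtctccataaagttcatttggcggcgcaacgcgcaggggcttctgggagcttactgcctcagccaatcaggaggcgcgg
Xpot: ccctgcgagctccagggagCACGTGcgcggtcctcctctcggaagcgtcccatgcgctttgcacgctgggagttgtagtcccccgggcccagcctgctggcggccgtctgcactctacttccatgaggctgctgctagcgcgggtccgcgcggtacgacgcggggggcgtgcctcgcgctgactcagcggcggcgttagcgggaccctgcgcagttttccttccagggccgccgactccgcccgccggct
Tnpo2: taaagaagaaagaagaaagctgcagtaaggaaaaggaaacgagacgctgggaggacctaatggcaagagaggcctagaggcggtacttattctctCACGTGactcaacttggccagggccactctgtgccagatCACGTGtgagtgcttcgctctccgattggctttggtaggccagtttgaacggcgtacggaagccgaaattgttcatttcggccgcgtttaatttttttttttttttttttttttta

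Other genes of the pathway gave a similar picture at the pore and a mixed one at the lamina. In the list of further pore genes, 9 of 11 tested rose and 1 fell, with a median change of 0.223. Ndc1, a membrane nucleoporin, was at 8.98, 9.01, 9.03, 8.96 and 9.15 in LD and at 9.47, 9.48, 9.43, 9.44 and 9.46 in HD, a separate and narrow range. It rose 1.35-fold (0.43 ± 0.040 SE, limma adjusted p = 1.4e-06), and Sec13, shared by the Y complex and the COPII coat, rose by 0.36. The gene that fell was Seh1l, which serves both the Y complex and the GATOR2 complex of nutrient sensing. Its signal was 10.26, 10.47, 10.25, 10.26 and 10.29 in LD and 10.06, 9.97, 10.04, 9.98 and 10.05 in HD. All HD values were lower, and it was 1.22-fold lower (-0.29 ± 0.046 SE, limma adjusted p = 1.5e-04), opposite in direction to the 6 outer ring members above.

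In the list for export of messenger RNA, 11 of 17 tested genes rose and 1 fell (median 0.204). Ddx39a, an RNA helicase that helps to load export factors, rose 1.36-fold (0.44 ± 0.039 SE, limma adjusted p = 8.6e-07). Nxt1, the partner of the export receptor Nxf1, rose by 0.39 (adjusted p = 8.4e-05). Thoc2, the scaffold of the THO complex, fell by 0.16 with overlapping groups (limma adjusted p = 0.032). Its call was lost without LD replicate 1 or 2 or HD replicate 2, 3 or 4 (adjusted p 0.058 to 0.079), and without a filter on dim rows (adjusted p = 0.057).

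In the list of lamina and envelope genes, 7 of 15 tested rose and 4 fell, with a median of 0.071 that lay near that of all genes. Lmna, which encodes lamins A and C, was at 10.04, 9.98, 10.10, 10.08 and 10.18 in LD and at 10.48, 10.64, 10.59, 10.54 and 10.44 in HD. The groups were separate, and it rose 1.38-fold (0.46 ± 0.048 SE, limma adjusted p = 3.8e-06). Banf1, a DNA-binding protein of the envelope, rose by 0.39. Syne1 and Sun1, which link the envelope to the cytoskeleton, fell by 0.29 and 0.24 (limma adjusted p = 5.3e-05 and 6.2e-05). A dimmer row of Syne1, below the floor at 4.25 and 4.35, did not separate the groups. Counts for all these lists are to be read against the 31.4% of all genes called higher and 19.5% called lower.

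**Figure D5:**
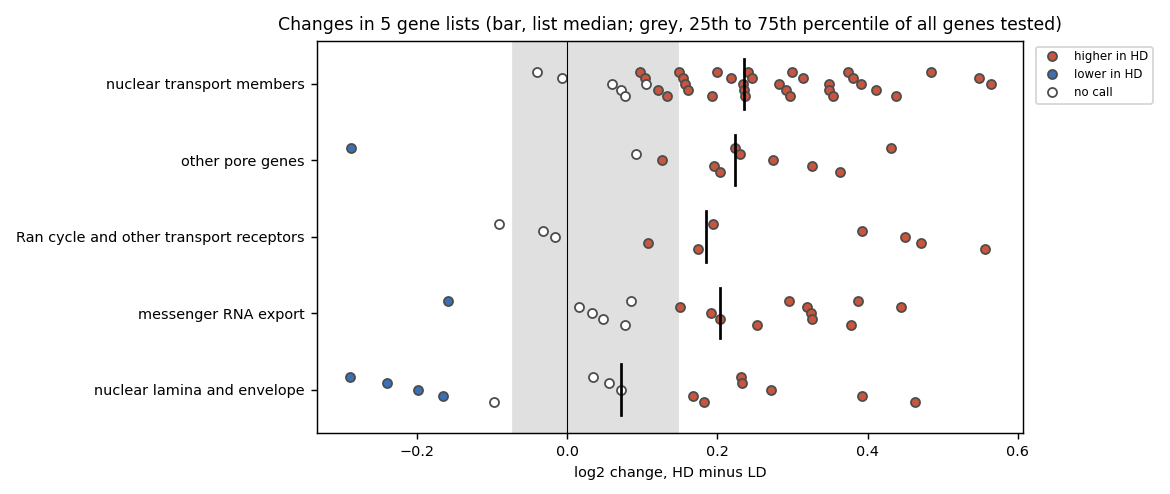
Log2 change from LD to HD (x axis) of each tested gene in the member list and in the lists of further pore genes, Ran cycle genes, export of messenger RNA, and lamina and envelope genes (rows), coloured by call, with the list median as a bar and the range from the 25th to the 75th percentile of all genes tested in grey. List medians are 0.236, 0.223, 0.184, 0.204 and 0.071, and 4 genes of the lamina list lie among the lower calls.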

How the data were processed

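The authors deposited 1 table of log2 RMA signals for 10 arrays (5 LD, 5 HD), per the submitters' processing notes; no software version is stated and the genome build was not given in the sources used here. RMA subtracts a modelled background, brings the arrays' distributions close together and compresses folds. Medians over all deposited rows still ran from 5.19 in HD replicate 2 to 5.28 in LD replicate 4. Of 72688 rows, 6732 were controls. Gene names came from the platform annotation, where 30604 rows named 1 symbol, updated through gene IDs. A gene was represented by its brightest row and tested if its mean exceeded the median row mean (5.24), which left 17800 genes. The HD minus LD difference was fitted with lmFit and eBayes (limma 3.58.1 under R 4.3.3), two-sided, Benjamini-Hochberg adjusted, and the script was tested on simulated data. Nothing in the labels says that replicates were separate cultures, so the p-values reflect only how these samples varied, and that variation may be technical. The number of arrays limits the precision.

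Members, gene lists and tests were chosen with earlier results of these data known. Array values are printed for Ran and, per class, for the called members with the largest change in each direction (2 in classes of at least 5) and, in those classes, the uncalled member nearest 0; from each other list, the 2 most changed called genes of either direction are named. Alternatives covered quantile normalization, median centring, scaling on control rows, filters, array weights, variance settings, the replicate block and leaving out each array. Promoters shown were narrowed to those with an E-box. Protein features were not analysed here. Scan dates were not used here, so a batch could not be looked for.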

Additional observations from a re-analysis of the deposited data

Results flagged for a closer look

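In Nup98, HD replicate 3 stood apart from the other HD arrays, at 9.66 against 9.72 for the nearest of them and 9.74 for the highest, a gap of 0.782 of the group's range. It was the single such array in 76 groups of 5 examined (38 members, LD and HD), and chance gives about 1 in 20 groups. Without HD replicate 3 the change of Nup98 was 0.25.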

How the results depend on the processing

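Of 721 values of single members under 19 alternatives, 690 kept their direction and their side of the threshold, and 25 of 38 members did so under all alternatives run for them. The count of higher members was 31 with the replicate number as a block (Nup54 lost its call, adjusted p = 0.054, and no other member call changed) and 31 to 32 when any 1 array was left out; no member was lower in those fits. The numbers were not treated as pairs, since deviations of same-numbered arrays correlated at 0.186, -0.091, -0.036, 0.216 and -0.025. Requiring 1.2-fold left 16 higher members. The median member change was 0.222 to 0.246 with 1 array left out, 0.196 after quantile normalization and 0.176 after scaling on control rows, where 1 member was lower. The median of all genes tested was 0.055 in the deposited values and 0.047 to 0.059 with 1 array left out. It was 0.09 after quantile normalization and 0.133 after scaling on control rows. The distance between members and all genes thus narrowed under quantile normalization as well as under control row scaling. Directions turned after that scaling for Ipo5 (-0.09), Tnpo1 (-0.068), Tnpo3 (-0.06), Nup88 (0.041) and Hikeshi (0.003), and for Nup88 after quantile normalization (0.026). Tnpo2 was at 0.002 with array weights and at -0.019 to 0.019 with 1 array left out. With 1 array left out, 0 to 1 genes were lower both in the messenger RNA export list and in the Ran cycle list. Shifts under control row scaling depend on signal level, and otherwise the cause of these differences was not tested.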

Other observations

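Names of the family also stood on 4 rows that name several symbols and were outside the rule. The row naming Nup214, a cytoplasmic filament nucleoporin, with a microRNA was at 8.98 ± 0.047 (LD; SD, n = 5) and 9.14 ± 0.050 (HD), and the row naming the importin Ipo11 with Lrrc70 was at 8.39 ± 0.072 and 8.68 ± 0.064; neither overlapped between groups. The row naming Ipo7, an importer of ribosomal proteins and histone H1, with a small nucleolar RNA was at 10.59 ± 0.058 and 10.61 ± 0.094, and the row naming the channel nucleoporin Nup62 with Il4i1 at 6.09 ± 0.060 and 6.20 ± 0.074; both overlapped. Which of the named genes each row measures was not tested.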
